A study of Mus musculus with 36 samples.

Results

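Mouse intestinal organoids kept for 24 h with an antagonist of the retinoid X receptor (RXR) were compared, across all measured genes, with the same cultures at the start of treatment (0 h). Libraries were taken by their labels, 4 at 24 h with the antagonist and 4 at 0 h, which is 8 of the 36 libraries of the series. The series covers 9 conditions: 0 h, and 6 h and 24 h with DMSO, all-trans retinoic acid, 9-cis retinoic acid or the antagonist. The 4 DMSO libraries at 24 h are set beside the comparison as vehicle. Every group held the same 2 organoid cultures, from male wild-type C57BL/6 littermates aged 8 weeks, with RNA purified in duplicate and 3 wells pooled for each purification. No group carried an engineered allele. Single cells were seeded at 50000 per well and grown from day 0 to day 3 in ENR, a medium with EGF, Noggin and R-Spondin, supplemented with 20% Wnt3a-conditioned medium, 10 µM Y-27632 (a ROCK inhibitor) and 3 µM CHIR99021 (a GSK3 inhibitor). At day 3 these supplements were withdrawn and the antagonist, not named in the labels, was added at 5 µM. The 0 h organoids are labelled as untreated, and the labels do not say whether they were taken before the change of medium. The antagonist, vehicle, medium and elapsed time cannot be told apart in the comparison with 0 h. The difference between the antagonist and DMSO at 24 h was therefore tested in the same model and is given beside it.

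RXR is a nuclear receptor that binds DNA mostly as the partner of another receptor: the retinoic acid receptors (RAR), PPAR, LXR, FXR, the vitamin D receptor or the xenobiotic receptors PXR and CAR. Through these partners it takes part in the response to vitamin A, fatty acids, sterols, bile acids, vitamin D and foreign compounds. In the intestinal epithelium, Wnt signals keep crypt cells dividing, and cells that leave the crypt become absorptive enterocytes or secretory goblet, Paneth, enteroendocrine and tuft cells.

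Levels are given as RPKM (reads scaled by the length of the gene and the size of the library, which allows levels of different genes to be compared per length). Values for single libraries are listed as the first and the other duplicate of culture 1, then those of culture 2. Differences are on the scale of log2(RPKM + 0.5), where 1 is a doubling and low genes are understated, with the SE and the Benjamini-Hochberg adjusted p of limma over 11361 tested genes. A gene is said to rise or fall where the adjusted p was below 0.05. The 8 libraries compared held 19640305 to 30686200 reads, with the fewest in the first duplicate of culture 1 at 0 h. The first 2 principal components of the 12 libraries, with 62.3% and 30.4% of the variance, separated the 3 groups. The epithelial marker Epcam lay at 405, 383, 398 and 396 RPKM at 0 h and at 369, 375, 376 and 355 RPKM with the antagonist, a difference of -0.10 ± 0.06 (SE, adjusted p = 0.17) that was called at -0.24 under read-sum scaling. Of 14 fibroblast and muscle markers, 4 were in the table, with a summed level of 1.96 to 2.55 RPKM at 0 h and 2.53 to 2.97 RPKM with the antagonist, and collagens and Pdgfra were not in it. Of 14 immune markers, 4 were in the table, with a summed level of 7.28 to 9.64 RPKM at 0 h and 5.12 to 6.49 RPKM with the antagonist, and Ptprc was not in it. Of 11 endothelial and neural markers, 2 were in the table, at 0.55 to 0.85 RPKM summed at 0 h and 0.34 to 0.62 RPKM with the antagonist. Whether these low levels bear on any result was not tested.

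After 24 h with the antagonist the organoids held less of most transcripts of mature absorptive and of dividing cells than at the start. They held more of most transcripts of mucus and of the integrated stress response, and of several of squamous-type epithelium. Tff1, a secreted trefoil peptide of the stomach surface, was the gene that rose most on the log2(RPKM + 0.5) scale, from a mean of 14.5 to 725 RPKM. Apoa1, the main protein of high-density lipoprotein, fell from 31.6 to 1.64 RPKM, while in DMSO it reached 773 RPKM. In all, 4104 genes (36.1% of those tested) were higher with the antagonist than at 0 h and 3944 (34.7%) were lower. At least 2-fold differences were fewer, with 492 genes higher (4.33%) and 458 lower (4.03%). The sign was the same in both cultures for 8045 of the 8048 called genes. The calls were made on these same 2 cultures, so the shared sign is not a separate check. The 4 libraries of each group did not overlap at 7745 tested genes (68.2%). The median over all tested genes was 0.00 on the log2 scale. When each library was scaled to its read sum, that median moved by -0.13 and the calls split into 3010 higher and 5114 lower.

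Over the same 24 h in DMSO, 3317 genes were higher than at 0 h (29.2%) and 3437 were lower (30.3%), and the 2-fold changes were nearly all rises (553 against 19). Both comparisons use the same 0 h libraries, so their values are set side by side and no overlap of them is given. The direct test of antagonist against DMSO at 24 h called 3535 genes higher (31.1%) and 3452 lower (30.4%), of which 288 (2.53%) and 677 (5.96%) were at least 2-fold apart.

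**Figure D1:**
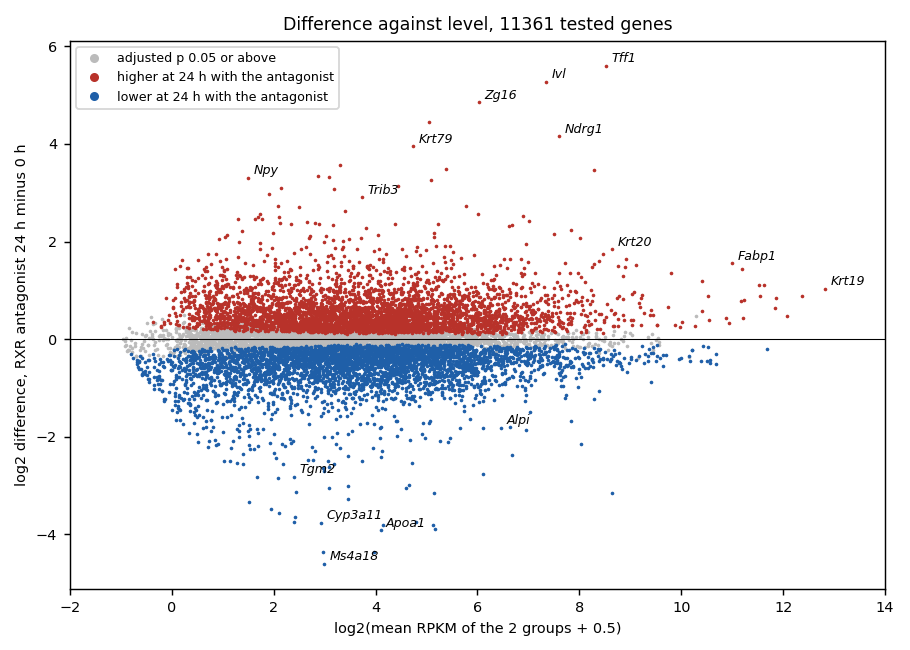
Log2 difference between 24 h with the RXR antagonist and 0 h (vertical axis) against the log2 mean RPKM of the 2 groups (horizontal axis), with 1 point for each of the 11361 tested genes. Red points are the 4104 genes called higher, blue points the 3944 called lower and grey points the rest, with Tff1 at 5.61 highest and Ms4a18 at -4.60 lowest.

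Most digestive enzymes of the brush border fell below the starting level. Of 16 tested members, 13 fell, 1 rose and the median was -1.14, whereas in DMSO all 16 rose with a median of 2.27. Against DMSO all 16 were lower, with a median of -3.87. Sis, sucrase-isomaltase, which splits sucrose and starch fragments (chr3:72888557-72967863, mm10), lay at 16.6, 23.6, 23.8 and 31.6 RPKM at 0 h, at 8.53, 8.13, 15.7 and 10.8 RPKM with the antagonist and at 292, 288, 409.9 and 514 RPKM in DMSO. The 4 antagonist libraries were all below the 4 at 0 h, and those in turn were far below DMSO. The difference from 0 h was -1.12 ± 0.18 (SE, adjusted p = 0.000102) and that from DMSO was -5.06 ± 0.18 (SE, adjusted p = 6.83e-11). Alpi, the intestinal alkaline phosphatase, went from 127, 143, 135 and 143 RPKM to 35.0, 29.2, 51.0 and 42.0 RPKM, a difference of -1.82 ± 0.11 (SE, adjusted p = 7.30e-09), with no overlap. The peptidases Anpep and Mep1b fell as well, with differences of -1.94 ± 0.17 and -1.84 ± 0.11. Ace, which trims peptides and cleaves angiotensin, was the 1 member that rose, at 0.54 ± 0.21 (SE, adjusted p = 0.0327), against 2.90 in DMSO. Under read-sum scaling 13 members fell and no member, Ace included, was called higher. In bulk RNA, fewer cells of a type and less RNA in each cell cannot be told apart.

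Other transcripts of mature absorptive cells divided. Of 17 mature absorptive transcripts, 11 fell and 6 rose, with a median of -1.18, while all 17 rose in DMSO (median 2.90). Among those that fell, the fructose transporter Slc2a5 went from 2.98, 3.23, 3.50 and 4.80 RPKM to 0.163, 0.176, 0.286 and 0.202 RPKM, a difference of -2.53 ± 0.15 (SE, adjusted p = 6.40e-09). Among those that rose were binding proteins for fatty acids and retinol. Fabp1 rose from 888, 836, 1058 and 1369.8 RPKM to 2412, 2387, 4021 and 3429.8 RPKM, a difference of 1.55 ± 0.21 (SE, adjusted p = 1.57e-05). Rbp2, which carries retinol in the enterocyte, rose from 216, 239, 283 and 333 RPKM to 548, 534, 807 and 731 RPKM, a difference of 1.29 ± 0.11 (SE, adjusted p = 3.19e-07). Both lay below DMSO, with differences of -1.35 ± 0.21 and -2.05 ± 0.11. Krt20, a keratin of differentiated surface cells, rose above both, from 174 RPKM at 0 h to 625 RPKM, against 425 RPKM in DMSO, with differences of 1.84 ± 0.09 (SE, adjusted p = 1.44e-09) and 0.55 ± 0.09 (SE, adjusted p = 0.000101).

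Most transporters fell too. Of 23 tested nutrient and ion transporters, 16 fell and 3 rose, with a median of -0.51 against 1.71 in DMSO, and 20 were lower than in DMSO. Slc7a9, the light chain of a cystine and basic amino acid carrier, fell from 10.4, 10.3, 9.80 and 10.52 RPKM to 1.18, 1.13, 1.79 and 1.72 RPKM, a difference of -2.48 ± 0.09 (SE, adjusted p = 1.03e-10). Slc26a6, an anion exchanger, and Slc9a3, a sodium-proton exchanger, fell by 2.65 and 1.84 on the log2 scale. Structural proteins of the microvillus showed no common direction: of 16, 5 rose and 6 fell, with a median of -0.03, and under read-sum scaling 8 fell with a median of -0.17. Ezr, which links actin to the apical membrane, rose by 0.81 ± 0.07, and Eps8l3 fell, at -0.48 ± 0.05.

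Genes of chylomicron assembly moved both ways. Of 20, 11 rose and 7 fell (median 0.47), and 18 were lower than in DMSO. The apolipoproteins that coat the particle fell. Apoa1 (chr9:46228630-46230469) lay at 28.9, 33.4, 25.2 and 39.0 RPKM at 0 h, at 1.69, 1.65, 2.15 and 1.05 RPKM with the antagonist and at 629, 557, 844 and 1061 RPKM in DMSO. The mean was 19.4-fold lower than at 0 h and 472-fold lower than in DMSO, with differences of -3.92 ± 0.29 (SE, adjusted p = 6.15e-08) and -8.48 ± 0.29 (SE, adjusted p = 3.96e-11). Apoa4 fell from 21.3 to 6.26 RPKM and Apob, the scaffold of the particle, from 41.4 to 15.6 RPKM, with differences of -1.71 ± 0.23 and -1.37 ± 0.10. Apoc2, the cofactor of lipoprotein lipase, fell by 3.76 on the log2 scale, and Gm44805 by 3.80. Their annotated spans overlap on chromosome 7, so reads from one may be counted for the other. Several genes that make or store triglyceride rose, although Dgat1 and Mttp, which loads lipid onto Apob, fell. Dgat2, which adds the last acyl chain, rose from 41.3, 42.8, 40.7 and 41.3 RPKM to 116, 119.5, 119.8 and 118 RPKM, a difference of 1.50 ± 0.06 (SE, adjusted p = 1.98e-10). Plin2, a coat protein of lipid droplets, and Gpat3, which adds the first acyl chain, rose by 1.35 ± 0.07 and 1.47 ± 0.09.

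Enzymes that handle foreign compounds, many of them known targets of PXR and CAR, were among the largest falls. Of 26, 14 fell and 7 rose (median -0.42), while 25 rose in DMSO (median 1.85) and 25 were lower than in DMSO (median -2.16). Cyp3a11, the main drug-oxidizing cytochrome P450 of mouse gut and liver (chr5:145854607-145879854), lay at 12.8, 14.8, 11.5 and 15.8 RPKM at 0 h, at 0.585, 0.512, 0.570 and 0.507 RPKM with the antagonist and at 113, 109, 136 and 149.8 RPKM in DMSO. The 3 groups did not overlap, and the difference from 0 h was -3.76 ± 0.25 (SE, adjusted p = 2.10e-08). Its paralog Cyp3a25 fell in the same way, at -3.57 ± 0.19, and reads shared between the 2 cannot be assigned with certainty. Sult1b1, which sulfates phenols, fell from 9.34 to 0.235 RPKM and Cyp2d26 from 9.24 to 0.603 RPKM. Ces2e, a carboxylesterase, differed by -2.55 ± 0.11 and Adh6a, an alcohol dehydrogenase, by -2.85 ± 0.18.

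Some of the steepest falls lay outside these lists. Agmat, named for its likeness to enzymes that hydrolyse agmatine, lay at 14.1, 15.3, 13.5 and 14.9 RPKM at 0 h, at 15.6, 14.2, 17.5 and 16.9 RPKM in DMSO and at 0.276, 0.129, 0.252 and 0.247 RPKM with the antagonist, 63.8-fold below 0 h. Its difference from 0 h was -4.37 ± 0.12 (SE, adjusted p = 1.90e-11), against 0.15 ± 0.12 in DMSO (adjusted p = 0.325). Cps1, which makes carbamoyl phosphate in the first step of the urea cycle and of citrulline synthesis, fell from 27.6, 35.0, 28.3 and 38.7 RPKM to 1.02, 1.57, 2.58 and 2.501 RPKM. Its difference was -3.81 ± 0.15 (SE, adjusted p = 2.98e-10). Otc, the next enzyme of that pathway, fell from 6.59 to 0.135 RPKM, a difference of -3.48 ± 0.17, and lay at 29.6 RPKM in DMSO. Gimd1 and Tmem238l fell at -4.37 ± 0.06 and -3.27 ± 0.07, beside 0.53 ± 0.06 and 0.19 ± 0.07 in DMSO. Hsd17b2, which oxidizes sex steroids to less active forms, fell in both, at -3.66 ± 0.15 with the antagonist and -0.85 ± 0.15 in DMSO. Ms4a18 and Ms4a10, membrane proteins of the MS4A family, fell from 14.8 to 0.125 RPKM and from 66.4 to 4.05 RPKM. Mettl7b fell from 4.57, 4.65, 4.25 and 5.43 RPKM to 0, 0.0295, 0.0289 and 0 RPKM, and its difference of -3.34 ± 0.15 depends on the pseudocount.

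**Figure D2:**
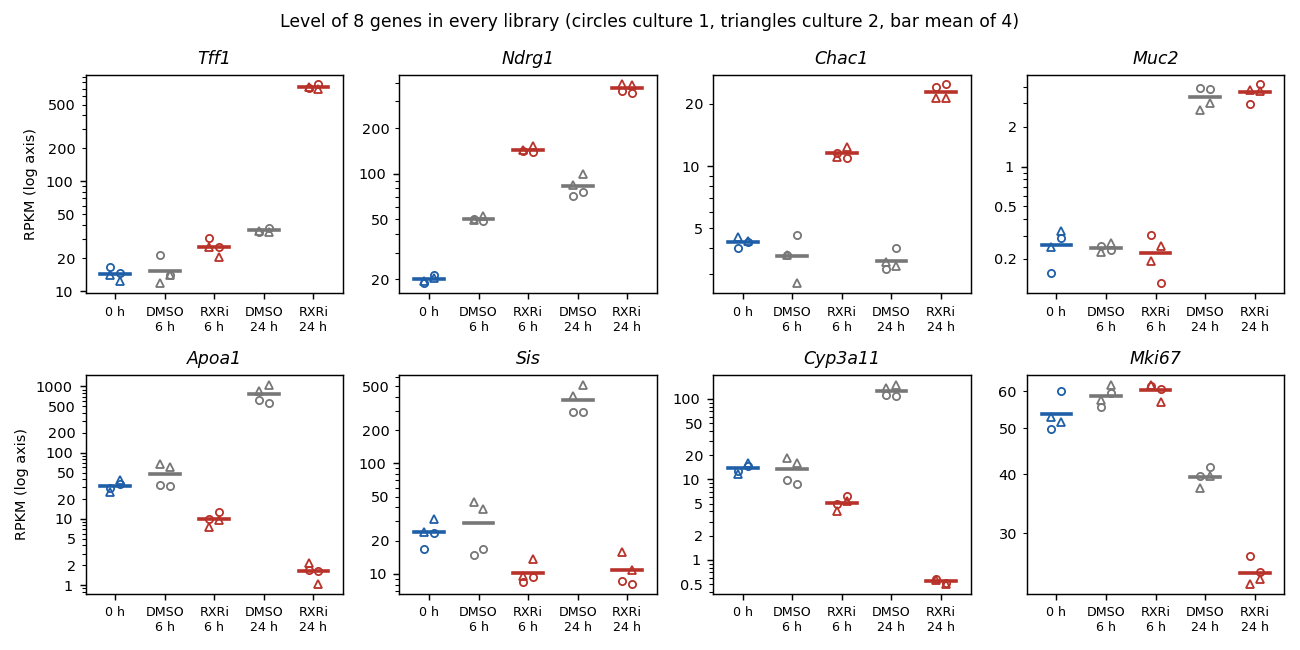
RPKM on a log axis for 8 genes in each library at 0 h (blue), with DMSO (grey) and with the RXR antagonist (red) at 6 h and 24 h, with circles for culture 1, triangles for culture 2 and a bar at the mean of 4. Apoa1, Sis and Cyp3a11 rise with DMSO at 24 h and lie below 0 h with the antagonist, Muc2 rises to about the same level in both, and Tff1, Ndrg1 and Chac1 are highest with the antagonist.

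Levels at 6 h are given as means of 4 libraries without a test. Ms4a18 stood at 1.77 RPKM with the antagonist and 16.3 RPKM with DMSO at 6 h, and Gimd1 at 6.39 and 35.0 RPKM. Apoa1 stood at 10.0 and 48.2 RPKM. Among rising genes, Aqp3 was at 11.6 RPKM with the antagonist against 2.11 RPKM with DMSO, near its 24 h mean of 12.7 RPKM. Tff1 was at 25.4 and 15.3 RPKM at 6 h, far below its 24 h mean of 725 RPKM.

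Secretory genes did not move as 1 group. Of 13 tested goblet cell genes, 12 rose and none fell (median 1.97), and 12 rose in DMSO (median 1.22). Against DMSO, 6 were higher and none was lower. Muc2, the gel-forming mucin of the gut, lay at 0.157, 0.290, 0.246 and 0.326 RPKM at 0 h and 3.00, 4.18, 3.80 and 3.74 RPKM with the antagonist, a difference of 2.47 ± 0.11 (SE, adjusted p = 1.08e-09). DMSO libraries held 3.94, 3.84, 2.69 and 3.01 RPKM, which overlapped with the antagonist, and the difference between the 2 was 0.12 ± 0.11 (SE, adjusted p = 0.384). Zg16, a lectin of the mucus granule, rose 31.7-fold, by 4.85 ± 0.24, and Fcgbp, a mucus-bound protein, by 2.18 ± 0.11. Fcgbp was also above DMSO, by 0.71 ± 0.11 (SE, adjusted p = 0.000119). Sytl2, a regulator of vesicle docking, differed most from DMSO in this list, with 1.79 RPKM at 0 h, 2.32 RPKM in DMSO and 11.3 RPKM with the antagonist.

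Paneth cell genes divided, with 8 of 14 rising and 2 falling (median 0.53), or 6 and 3 under read-sum scaling, while 13 rose in DMSO (median 1.64), and 11 were lower than in DMSO. Lyz1, the Paneth cell lysozyme, fell from 14.3, 14.4, 10.6 and 17.98 RPKM to 3.31, 5.04, 7.62 and 8.75 RPKM, a difference of -1.21 ± 0.20 (SE, adjusted p = 0.000125), and Lyz2 fell with it, at -0.89 ± 0.21. Reads shared by these near-identical genes may be split between them. All 5 tested defensins rose, with adjusted p from 0.00334 to 0.0484, and 4 of them rose to less than in DMSO. Copies of that family also share reads. Nupr1, which this list shares with the stress response, rose by 2.16 ± 0.13, against -0.15 ± 0.13 in DMSO (adjusted p = 0.328). Of 12 tested enteroendocrine genes, 7 fell and 3 rose (median -0.64). The hormones Gcg and Cck fell, at -1.73 ± 0.21 and -1.48 ± 0.18, and differed from DMSO by -0.14 ± 0.21 and 0.33 ± 0.18 (adjusted p = 0.568 and 0.126). Sct, secretin, fell with the antagonist from 2.19, 2.60, 2.59 and 2.67 RPKM to 0.868, 0.541, 0.793 and 0.777 RPKM, while its means in DMSO and at 0 h were 2.55 and 2.51 RPKM. Cpe, which trims prohormones, rose by 1.26 ± 0.06. Of 15 tuft cell genes, 3 were tested. Avil, an actin-binding protein of tuft cells, rose from 1.16, 1.02, 1.75 and 1.93 RPKM to 15.7, 16.8, 15.4 and 14.9 RPKM, a difference of 3.07 ± 0.13 (SE, adjusted p = 6.25e-10), but the defining tuft genes Dclk1 and Il25 were not in the table, and Trpm5 and Pou2f3 were too low to test.

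Reg lectins and other epithelial defence genes mostly fell. Of 11, 7 fell and 3 rose (median -0.76), while 9 rose in DMSO (median 1.59) and all 11 were lower than in DMSO (median -2.08). Reg1 rose instead, from 6.09, 5.77, 5.76 and 5.81 RPKM to 47.1, 61.8, 83.7 and 53.5 RPKM, a difference of 3.25 ± 0.16 (SE, adjusted p = 1.50e-09), and reached 224, 206, 273 and 341 RPKM in DMSO. Reg3g, a bactericidal lectin, fell at -1.24 ± 0.11. Pigr, which carries IgA across the epithelium, fell from 75.7, 86.9, 63.8 and 83.7 RPKM to 21.0, 24.1, 41.2 and 27.7 RPKM, a difference of -1.47 ± 0.15 (SE, adjusted p = 1.25e-06). The membrane mucin Muc13 fell by 1.20 on the log2 scale.

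Genes of dividing cells fell, and most fell further than in DMSO. All 33 DNA replication genes fell (median -0.89, against -0.61 in DMSO), and 30 were lower than in DMSO. All 32 mitosis genes fell (median -1.05, against -0.47), with 31 lower than in DMSO. All 26 ribosome biogenesis genes fell (median -0.82, against -0.54), with 20 lower than in DMSO. Mki67, the proliferation antigen Ki-67, lay at 49.9, 59.97, 53.0 and 51.6 RPKM at 0 h, at 39.7, 41.5, 37.3 and 39.6 RPKM in DMSO and at 26.8, 24.8, 23.5 and 24.0 RPKM with the antagonist. The 3 groups did not overlap, with differences of -1.10 ± 0.07 (SE, adjusted p = 8.95e-09) from 0 h and -0.66 ± 0.07 (SE, adjusted p = 1.28e-06) from DMSO. Mcm10, needed to fire replication origins, fell from 14.4 to 4.45 RPKM, a difference of -1.58 ± 0.08. Nek2, a centrosome kinase, Bub1b, of the spindle checkpoint, and Cenpa, the centromere histone, differed by -1.22 ± 0.04, -1.27 ± 0.05 and -1.23 ± 0.05. The nucleolar GTPase Gnl3 fell at -1.12 ± 0.06. At 6 h the Mki67 means were 60.2 RPKM with the antagonist and 58.5 RPKM with DMSO.

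Stem cell and Wnt target genes fell in part. Of 12 Wnt targets, 6 fell and 3 rose (median -0.16), or 8 and 1 under read-sum scaling, while 11 fell in DMSO (median -0.46), and 6 were higher than in DMSO with 1 lower. Axin2, a feedback inhibitor induced by Wnt, went from 14.4, 16.6, 15.2 and 15.5 RPKM to 9.26, 8.77, 9.33 and 9.46 RPKM, a difference of -0.71 ± 0.07 (SE, adjusted p = 6.18e-07). Its difference from DMSO was 0.14 ± 0.07 (SE, adjusted p = 0.0812). Ascl2, a crypt stem cell factor, was the 1 target below DMSO, and fell from 10.1, 6.74, 6.09 and 5.34 RPKM to 2.24, 2.14, 1.54 and 2.13 RPKM, a difference of -1.56 ± 0.15 (SE, adjusted p = 6.16e-07). Of 17 stem cell genes, 9 fell and 3 rose (median -0.23), or 12 and 1 under read-sum scaling. In DMSO 11 of them fell and 1 rose (median -0.32), and against DMSO 7 were higher and 8 lower (median -0.07). Olfm4 was not called, at 0.38 (adjusted p = 0.213), while it rose by 2.79 in DMSO. Cdca7 fell from 50.2 to 14.9 RPKM and Prom1, at 72.3 RPKM in DMSO, from 68.0 to 40.3 RPKM. Lgr5, the stem cell receptor for R-Spondin, was too low to test, at 0.630, 0.984, 0.682 and 0.758 RPKM at 0 h and 0.590, 0.748, 0.740 and 0.959 RPKM with the antagonist.

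**Figure D3:**
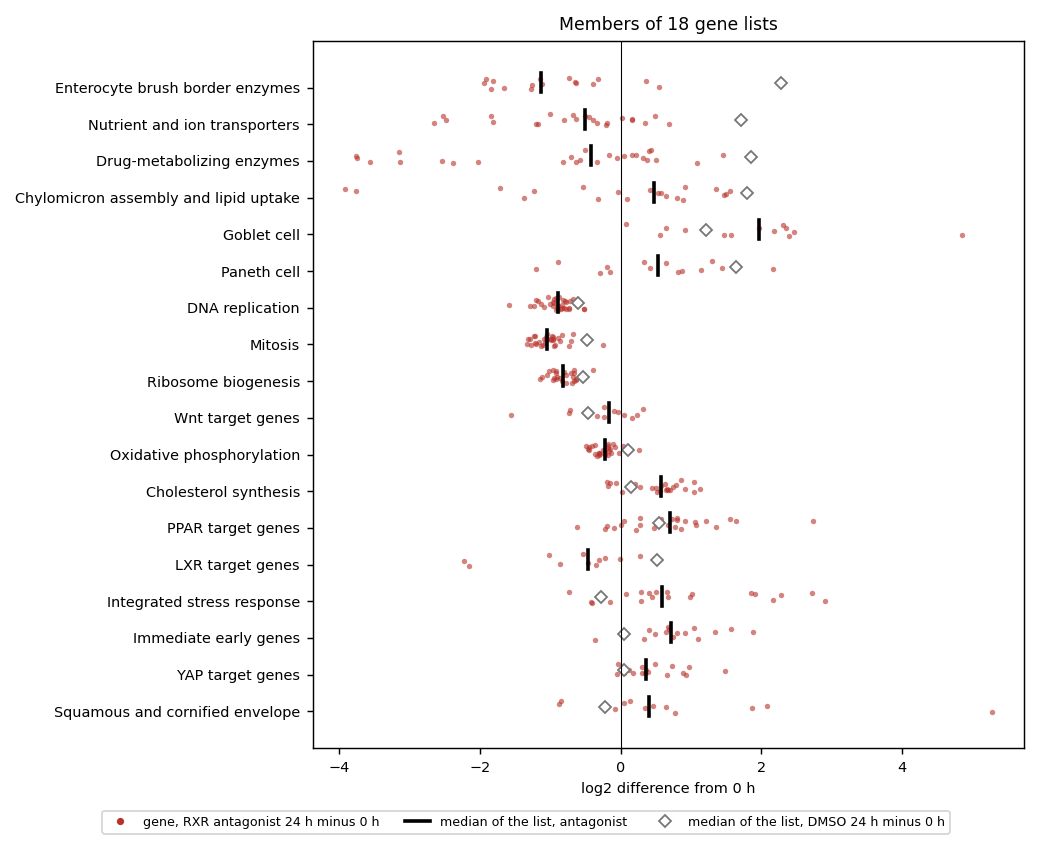
Log2 difference from 0 h (horizontal axis) for the tested members of 18 gene lists, with red points for genes at 24 h with the RXR antagonist, a black bar at their median and an open grey diamond at the median of the same genes in DMSO at 24 h. Most brush border enzymes lie left of 0 with the antagonist (median -1.14) and their DMSO median lies at 2.27, while mitosis genes lie left of 0 in both (-1.05 and -0.47).

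Transcripts of the receptors themselves moved unequally. Rxra lay at 11.6, 14.03, 11.9 and 12.1 RPKM at 0 h and 12.7, 12.9, 13.5 and 13.4 RPKM with the antagonist, a difference of 0.08 ± 0.06 (SE, adjusted p = 0.218) that became a call of 0.15 without 1 library at 0 h (culture 1, its other duplicate). Rxrb fell, at -0.26 ± 0.08 (adjusted p = 0.0104). Rarg rose from 2.60, 3.34, 3.49 and 4.29 RPKM to 7.39, 6.92, 7.61 and 8.27 RPKM, a difference of 1.05 ± 0.08 (SE, adjusted p = 7.49e-08). Of 13 receptors that pair with RXR, 6 rose and 4 fell, where 36.1% and 34.7% of all tested genes did so. Vdr, the vitamin D receptor, fell from 15.0, 17.2, 11.9 and 14.4 RPKM to 2.91, 3.27, 4.02 and 3.66 RPKM, a difference of -1.93 ± 0.16 (SE, adjusted p = 1.38e-07). Nr1i2, which encodes PXR, fell from 23.7, 26.0, 24.0 and 25.2 RPKM to 9.22, 9.67, 10.1 and 10.7 RPKM, a difference of -1.27 ± 0.05 (SE, adjusted p = 2.89e-10). Both had risen in DMSO, by 0.90 ± 0.16 and 0.47 ± 0.05. Nr1h3 (LXR alpha) fell at -1.02 ± 0.13. Nr1h4 (FXR) and Ppard rose by 1.00 ± 0.07 and 0.94 ± 0.07.

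Of the genes known to respond to retinoic acid, 3 were called and more than 2-fold lower on the log2(RPKM + 0.5) scale: Tgm2, Stra6 and Cdx1. Of 9 tested, 5 fell and 2 rose (median -0.24), a split of 6 and 1 under read-sum scaling, and 7 were lower than in DMSO. Tgm2, a transglutaminase induced by retinoic acid in many cells, lay at 8.58, 9.79, 7.97 and 8.68 RPKM at 0 h, at 6.70, 6.19, 6.01 and 6.62 RPKM in DMSO and at 0.750, 0.830, 0.772 and 0.879 RPKM with the antagonist. The antagonist libraries stood apart from both, with a difference of -2.82 ± 0.07 (SE, adjusted p = 3.86e-12) from 0 h and -2.40 ± 0.07 (SE, adjusted p = 6.62e-12) from DMSO. Stra6, the membrane receptor for retinol-binding protein, fell from 1.58, 1.93, 1.87 and 1.80 RPKM to 0.224, 0.382, 0.211 and 0.235 RPKM, a difference of -1.59 ± 0.14 (SE, adjusted p = 4.00e-07). Cyp26b1, which clears retinoic acid, was low throughout, at 0.0184, 0.0479, 0.0749 and 0.0988 RPKM at 0 h, 0.0146, 0.00685, 0.0335 and 0 RPKM with the antagonist and 0.194, 0.222, 0.337 and 0.374 RPKM in DMSO. Its difference from 0 h was -0.12 ± 0.12 (SE, adjusted p = 0.38), and with limma-voom on the recovered reads it was called at -1.97 (adjusted p = 0.00606). It was lower than in DMSO, at -0.60 ± 0.12 (SE, adjusted p = 0.000778). Isx, the intestinal factor that limits vitamin A uptake, stood at 62.8, 67.2, 70.2 and 75.6 RPKM at 0 h and 52.0, 47.1, 78.4 and 76.6 RPKM with the antagonist, and the groups overlapped, with a difference of -0.15 ± 0.10 (SE, adjusted p = 0.206). It was called lower, at -0.29, under read-sum scaling and, at -0.39, without culture 2. Of 19 genes that take up, bind or oxidize retinoids, 9 fell and 6 rose, whereas 13 rose in DMSO. Bco1, which cleaves beta-carotene to retinal, fell from 1.87, 2.10, 2.35 and 2.04 RPKM to 0.628, 0.888, 0.658 and 0.534 RPKM, a difference of -1.14 ± 0.08 (SE, adjusted p = 2.54e-08). Dhrs9 and Rdh10, which oxidize retinol to retinal, rose by 2.51 ± 0.10 and 0.73 ± 0.06.

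Target genes of the partner receptors moved in different directions. LXR targets mostly fell: 9 of 11, with 1 rising (median -0.46 against 0.52 in DMSO). Abcg5 and Abcg8, the subunits of the transporter that returns sterols to the lumen, fell from 24.8 to 4.94 RPKM and from 14.8 to 3.00 RPKM. Their differences were -2.23 ± 0.08 (SE, adjusted p = 1.86e-10) and -2.16 ± 0.09 (SE, adjusted p = 3.25e-10). Of 5 VDR targets, 4 fell and 1 rose, and Cd38, an NAD-consuming surface enzyme, went from 12.2, 15.6, 13.8 and 14.7 RPKM to 1.57, 1.98, 1.89 and 1.96 RPKM, a difference of -2.63 ± 0.06 (SE, adjusted p = 3.86e-12). S100g, the calcium-binding protein calbindin-D9k, fell at -0.96 ± 0.14. Of 8 FXR targets, 4 fell and 1, the receptor gene Nr1h4 itself, rose. Slc51a, a subunit of the bile acid exporter of the basal membrane, fell from 7.87, 7.47, 7.42 and 8.27 RPKM to 1.36, 1.24, 1.79 and 1.19 RPKM, a difference of -2.13 ± 0.09 (SE, adjusted p = 4.22e-10). Fgf15, the hormone that reports bile acids to the liver, fell from 6.73 to 2.26 RPKM, a difference of -1.37 ± 0.11.

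Most PPAR targets rose, with 19 of 26 higher and 1 lower (median 0.70). In DMSO 21 rose (median 0.54), and against DMSO 11 were higher and 9 lower. Angptl4, an inhibitor of lipoprotein lipase, lay at 42.0, 44.9, 50.2 and 53.5 RPKM at 0 h, at 60.8, 54.8, 59.99 and 63.0 RPKM in DMSO and at 140.4, 155, 153 and 149 RPKM with the antagonist, a difference of 1.64 ± 0.09 (SE, adjusted p = 4.76e-09) from 0 h. Slc25a20, which carries acylcarnitines into mitochondria, rose by 1.07 ± 0.05. Creb3l3, a membrane-bound transcription factor of lipid metabolism, rose by 2.73 ± 0.09, and by 2.88 ± 0.09 in DMSO. Pdk4, which inhibits pyruvate dehydrogenase, was low at 0.424, 0.379, 0.344 and 0.343 RPKM at 0 h and rose to 0.797, 0.871, 0.9748 and 0.944 RPKM, a difference of 0.68 ± 0.08 (SE, adjusted p = 2.84e-06), while the DMSO mean was 0.235 RPKM. Genes induced through the aryl hydrocarbon receptor, which does not pair with RXR, were mostly above DMSO: 6 of 7 were higher and 1 lower, while against 0 h 3 rose and 4 fell. Cyp1a1 stood at 15.7, 17.7, 13.6 and 12.7 RPKM at 0 h, 6.47, 8.28, 8.35 and 8.00 RPKM with the antagonist and 0.354, 0.533, 0.272 and 0.184 RPKM in DMSO, with differences of -0.89 ± 0.11 (SE, adjusted p = 7.41e-06) from 0 h and 3.32 ± 0.11 (SE, adjusted p = 2.78e-11) from DMSO. Tiparp, another of these genes, rose by 1.03 ± 0.08.

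**Figure D4:**
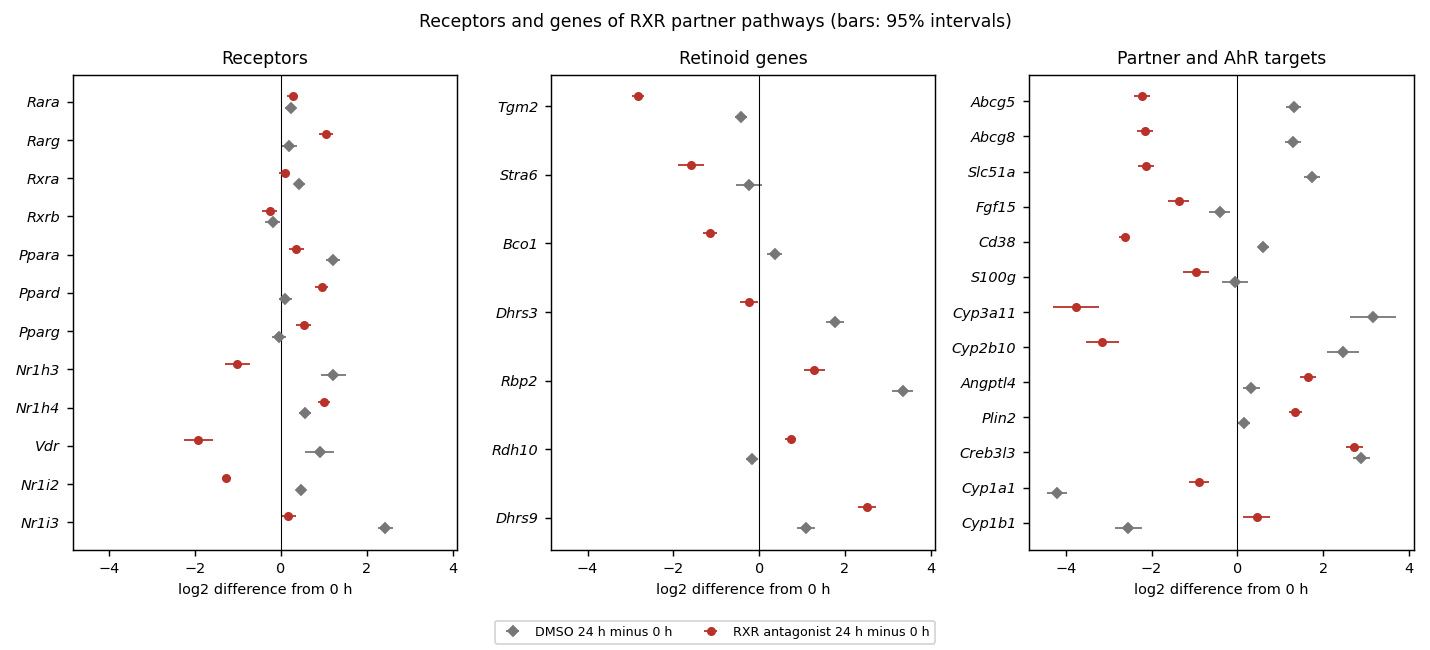
Log2 difference from 0 h with its 95% interval for nuclear receptors (left), retinoid genes (middle) and genes regulated through RXR partners or the aryl hydrocarbon receptor (right), with red circles for 24 h with the RXR antagonist and grey diamonds for DMSO at 24 h. Vdr, Nr1i2, Abcg5, Slc51a and Cd38 lie left of 0 with the antagonist and right of 0 in DMSO, while Angptl4, Plin2 and Rarg lie further right with the antagonist.

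Genes of the integrated stress response, in which translation control by eIF2 alpha raises ATF4 and its targets for amino acid supply, mostly rose. Of 20, 15 rose and 3 fell (median 0.58), whereas 13 fell in DMSO (median -0.28) and 16 were higher than in DMSO. Chac1, which degrades glutathione, lay at 4.01, 4.31, 4.57 and 4.35 RPKM at 0 h, at 3.17, 4.01, 3.45 and 3.29 RPKM in DMSO and at 24.0, 24.7, 21.3 and 21.4 RPKM with the antagonist. The antagonist libraries were all above both other groups, with a difference of 2.28 ± 0.11 (SE, adjusted p = 1.52e-09). Trib3, a pseudokinase induced by ATF4, rose from 2.60 to 22.9 RPKM and the transcription factor Atf5 from 18.3 to 69.5 RPKM, by 2.91 ± 0.12 and 1.90 ± 0.09. Vldlr, a lipoprotein receptor, rose from 0.946, 0.971, 1.03 and 1.04 RPKM to 10.0, 9.91, 8.72 and 8.77 RPKM, a difference of 2.72 ± 0.10 (SE, adjusted p = 2.09e-10). Chaperones of the endoplasmic reticulum showed no common direction, with 6 of 18 higher and 5 lower, a split that became 5 and 10 under read-sum scaling. NRF2 antioxidant genes had 5 higher and 8 lower of 18, a split of 3 and 12 under read-sum scaling and of 4 and 11 under quantile normalization. The ferritin heavy chain Fth1 fell from 878 to 477 RPKM and was at 1379.5 RPKM in DMSO.

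Most glucose and sterol genes rose and most respiratory genes fell. Of 22 glycolysis and hypoxia genes, 14 rose and 2 fell (median 0.42), or 12 and 4 under read-sum scaling, and against DMSO 10 were higher and 4 lower. Ndrg1, a hypoxia- and stress-induced gene (chr15:66929318-66969641), rose 18.3-fold from 18.8, 21.3, 19.6 and 20.3 RPKM to 352, 341, 388 and 384 RPKM, a difference of 4.16 ± 0.06 (SE, adjusted p = 4.19e-14), and lay at 70.9, 75.6, 84.4 and 99.2 RPKM in DMSO. Slc2a1, the glucose transporter GLUT1, rose from 47.8, 50.5, 52.5 and 52.4 RPKM to 181, 190.1, 209.5 and 206 RPKM, a difference of 1.94 ± 0.07 (SE, adjusted p = 8.62e-11), against 0.08 ± 0.07 in DMSO (adjusted p = 0.335). Hk1, the first enzyme of glycolysis, and the vessel growth factor Vegfa rose by 1.48 ± 0.07 and 1.45 ± 0.08. Of 28 oxidative phosphorylation genes, 21 fell and 1 rose, none by 2-fold (median -0.22), and 25 were lower than in DMSO; Ndufs1 of complex I was at -0.45 ± 0.05. Of 25 cholesterol synthesis genes, 18 rose and 2 fell (median 0.57, against 0.15 in DMSO). Fdft1, which commits farnesyl groups to sterols, rose from 53.1, 50.7, 53.0 and 52.1 RPKM to 90.5, 97.8, 96.1 and 96.0 RPKM, a difference of 0.86 ± 0.04 (SE, adjusted p = 2.03e-09).

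On the same scale the 2 largest rises were of a stomach and a squamous gene. Tff1 (chr17:31161395-31165060) lay at 16.7, 14.7, 14.03 and 12.4 RPKM at 0 h, at 35.0, 38.0, 35.5 and 34.9 RPKM in DMSO and at 713, 766, 723 and 697 RPKM with the antagonist, a mean 50.1-fold above 0 h. The differences were 5.61 ± 0.10 (SE, adjusted p = 1.29e-13) from 0 h and 4.32 ± 0.10 (SE, adjusted p = 1.03e-12) from DMSO. Ivl, involucrin, the scaffold of the cornified envelope of skin, lay at 5.48, 6.43, 8.89 and 10.6 RPKM at 0 h, at 22.997, 27.5, 25.3 and 25.8 RPKM in DMSO and at 264, 267, 364 and 378 RPKM with the antagonist, a difference of 5.28 ± 0.17 (SE, adjusted p = 5.44e-11). Of 12 squamous genes, 7 rose and 2 fell (median 0.40, against -0.23 in DMSO), and 10 were higher than in DMSO. The split was 5 and 2 under read-sum scaling (median 0.27) and 6 and 2 under quantile normalization (median 0.24). Sprr1a and Lor, 2 more envelope proteins, rose by 2.07 ± 0.12 and 1.87 ± 0.15, while the basal keratin Krt5 fell, at -0.84. Krt79, a keratin of skin appendages, rose from 2.30, 2.80, 3.02 and 2.78 RPKM to 47.2, 45.5, 49.3 and 55.7 RPKM and Trim29, a squamous epithelial gene, from 6.93, 7.22, 5.37 and 5.81 RPKM to 78.5, 79.3, 71.0 and 73.9 RPKM. Their differences were 3.95 ± 0.10 (SE, adjusted p = 3.99e-12) and 3.49 ± 0.15 (SE, adjusted p = 5.96e-10), and in DMSO they were 0.35 ± 0.10 and 0.08 ± 0.15. Of 12 stomach genes, 4 were tested: Tff1 and Anxa10 rose, Gkn3 fell at -1.91 ± 0.19, Cym was not called, and the gel-forming mucin Muc5ac was too low to test.

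Other large rises were of mixed function. Aqp3, a water and glycerol channel, rose from 0.637, 0.911, 0.825 and 0.871 RPKM to 13.7, 10.8, 13.5 and 12.9 RPKM, a difference of 3.33 ± 0.16 (SE, adjusted p = 1.44e-09). Mal, a protein of apical transport, rose from 18.2 to 109.5 RPKM, and lay at 13.1 RPKM in DMSO. Acsbg1, which activates fatty acids, Slco2a1, a prostaglandin carrier, and Ctla2a, a protease inhibitor, rose by 3.15 ± 0.11, 3.11 ± 0.11 and 3.57 ± 0.10. Npy, a neuropeptide, was at 0, 0, 0.0586 and 0 RPKM at 0 h and 4.06, 4.43, 4.40 and 5.60 RPKM with the antagonist, and the size of its difference, 3.31 ± 0.12, depends on the pseudocount, as does its place among the largest rises. Mcpt1 and Mcpt2, mast cell protease genes, were also among the 15 largest rises. Mcpt1 lay at 1.85, 2.51, 2.38 and 2.88 RPKM at 0 h, at 15.8, 15.4, 13.3 and 15.1 RPKM in DMSO and at 57.9, 54.9, 67.0 and 70.9 RPKM with the antagonist, a difference of 4.45 ± 0.11 (SE, adjusted p = 3.86e-12). Mcpt2 lay at 53.8, 54.1, 48.7 and 48.7 RPKM at 0 h, at 293, 318, 237 and 245 RPKM in DMSO and at 551, 523, 609 and 596 RPKM with the antagonist, a difference of 3.46 ± 0.11 (SE, adjusted p = 4.09e-11). The 3 groups did not overlap for either gene, and the means with the antagonist were 4.21-fold and 2.09-fold above DMSO. Reads may be shared within this gene family. Neither gene is among the immune markers summed above, and which cells held these transcripts was not tested.

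Immediate early genes, transcribed within minutes of growth factor or stress signals, were mostly higher: 13 of 16 rose and 1 fell (median 0.71), and 14 were higher than in DMSO. Fos, a subunit of AP-1, lay at 28.5, 33.3, 26.7 and 30.5 RPKM at 0 h, at 35.0, 35.97, 25.5 and 24.0 RPKM in DMSO and at 87.1, 86.5, 65.0 and 66.4 RPKM with the antagonist, a difference of 1.33 ± 0.08 (SE, adjusted p = 1.13e-08). Klf4, a factor of differentiated surface cells, rose from 3.92 to 15.8 RPKM, and Dusp6, a feedback phosphatase of ERK, rose by 1.57 ± 0.05. Of 17 YAP targets, 13 rose and none fell (median 0.37), or 10 and 2 under read-sum scaling, 1 of them by 2-fold: F3, the tissue factor gene, at 1.48 ± 0.13 (SE, adjusted p = 2.38e-07). Of 17 fetal-like and regenerative genes, 12 rose and 2 fell (median 0.76, or 0.32 under quantile normalization), and against DMSO 11 were higher and 3 lower. Clu rose from 1906, 1965, 2144 and 2016 RPKM to 4049.5, 4551, 4211 and 4547 RPKM, a difference of 1.11 ± 0.08 (SE, adjusted p = 3.78e-08), and Il1rn, the interleukin-1 receptor antagonist, rose by 1.59 ± 0.07. Ly6a, the Sca-1 antigen that defines this state in injured epithelium, fell instead, from 578 to 449.9 RPKM, a difference of -0.36 ± 0.07 (SE, adjusted p = 0.00066). Its mean was 0.778 of the 0 h mean with the antagonist and 0.688 of it in DMSO.

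Intestinal identity factors changed unequally. Cdx1 and Cdx2, which specify intestinal epithelium, fell from 85.8 to 38.5 RPKM and from 67.3 to 38.6 RPKM, with differences of -1.14 ± 0.12 (SE, adjusted p = 1.33e-06) and -0.79 ± 0.06 (SE, adjusted p = 1.10e-07). In DMSO they were -0.16 ± 0.12 and -0.09 ± 0.06. Hnf4g, an enterocyte nuclear receptor, rose from 9.22, 10.4, 10.4 and 10.8 RPKM to 28.1, 23.8, 32.1 and 27.6 RPKM, a difference of 1.40 ± 0.12 (SE, adjusted p = 1.62e-07), while DMSO reached 42.2, 45.2, 54.9 and 61.1 RPKM. The keratin Krt19, the highest of this list at 4784 RPKM, rose to 9756 RPKM, a difference of 1.03 ± 0.07 (SE, adjusted p = 2.33e-08). Since Krt19 takes the top rank in both groups, that difference is 0 under quantile normalization.

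Promoters of genes that moved are shown for the motifs they hold, as an aid to reading these lists. Sequences are from RefSeq on GRCm38.p6 and cover 250 bases before and 50 after each start, and 9087 tested genes had at least 1 such window. On both strands 11 motifs were searched with the changes already known, and those shown were picked after their counts had been seen, so no test is given. CAAAGTCCA, the type bound by HNF4 receptors, was in 14 of 357 genes that fell at least 2-fold (3.92%), in 1 of 383 that rose at least 2-fold (0.261%), in 58 of 9087 tested genes (0.638%) and in 0.475% of all 32851 windows. TGACTCA, the type bound by AP-1, was in 45 of the 383 genes that rose (11.7%), in 23 of the 357 that fell (6.44%), in 4.71% of tested genes and in 5.20% of all windows. The direct repeat of AGGTCA with any 1 base in its gap, 1 of the types that RXR pairs bind, was in 4 tested genes (0.044%) and 0.040% of all windows. Bco1 was the 1 gene with a 2-fold change among those 4. Repeats with longer gaps were not among the motifs searched. TGATGCAAT, of the type bound by ATF4 with CEBP factors, was in 3 of the 383 genes that rose (0.783%), in 1 of the 357 that fell (0.28%), in 0.143% of tested genes and in 0.192% of all windows. Of the types bound by CDX factors, TTTATGG was in 4.2% of the genes that fell, 1.57% of those that rose, 2.04% of tested genes and 2.75% of all windows. The variant TTTATTG was in 3.92%, 2.87%, 3.26% and 4.6% of the same sets. GATAAG, the type bound by GATA factors, was in 10.4%, 6.79%, 6.38% and 7.44% of them. CAAAGGTCA was in 1.4% of the genes that fell, 0.522% of those that rose, 0.484% of tested genes and 0.478% of all windows. It lies within the form of the repeat with A in the gap, which was in 0.28% of the genes that fell, none of those that rose, 0.033% of tested genes and 0.015% of all windows. GCGTG, the core bound by the aryl hydrocarbon receptor, was in 43.1% of the genes that fell and 47.3% of those that rose, both below its share of 56.5% in tested genes, and in 32.4% of all windows. Its extension TGCGTG, counted again, was in 10.4%, 10.7%, 14.4% and 8.47% of the same sets.

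Stretches of 60 bases before the start, given 5′ to 3′ on the strand of the gene with the matched motif or its reverse complement in capitals, are shown for Bco1 and for the 4 named genes with the largest fall and CAAAGTCCA before the start. The matches begin 56, 13, 109, 19 and 186 bases before the start, in the order shown. The stretches lie at chr8:117095785-117095844 (plus strand), chr3:132629786-132629845 (plus), chr5:145879930-145879989 (minus), chr1:87101607-87101666 (minus) and chr16:33794277-33794336 (plus).
Bco1: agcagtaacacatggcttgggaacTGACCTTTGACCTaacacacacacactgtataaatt
Gimd1: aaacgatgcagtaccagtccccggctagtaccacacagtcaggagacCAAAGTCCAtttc
Cyp3a11: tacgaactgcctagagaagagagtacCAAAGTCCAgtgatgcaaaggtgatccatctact
Alpi: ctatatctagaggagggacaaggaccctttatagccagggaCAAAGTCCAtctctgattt
Muc13: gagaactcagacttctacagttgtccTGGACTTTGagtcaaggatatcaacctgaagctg
In these 5 genes the level with the antagonist was 0.677, 0.948, 0.543, 39.3 and 26.9 RPKM, against 2.09, 29.3, 13.7, 137 and 60.3 RPKM at 0 h.

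The same stretch is shown for the 4 named genes with the largest rise and TGACTCA before the start, and for Nupr1, the named gene of the 3 with TGATGCAAT. The matches begin 116, 129, 117, 55 and 111 bases before the start. The stretches lie at chr3:92573819-92573878 (minus strand), chr13:60936722-60936781 (minus), chr6:78425839-78425898 (plus), chr10:81098895-81098954 (minus) and chr7:126625548-126625607 (minus).
Ivl: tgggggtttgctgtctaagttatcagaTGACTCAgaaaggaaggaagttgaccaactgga
Ctla2a: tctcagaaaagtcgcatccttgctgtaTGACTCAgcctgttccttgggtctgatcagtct
Reg1: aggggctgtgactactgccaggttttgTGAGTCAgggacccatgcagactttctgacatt
Creb3l3: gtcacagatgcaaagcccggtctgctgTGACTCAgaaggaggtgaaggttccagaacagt
Nupr1: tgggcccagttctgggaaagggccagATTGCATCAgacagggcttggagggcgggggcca
Ivl, Ctla2a and Nupr1 were also higher than in DMSO, whereas Reg1 was lower (-2.08 ± 0.16) and Creb3l3 differed by -0.16 ± 0.09 (SE, adjusted p = 0.14).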

How the data were processed

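RNA-seq of mouse intestinal organoids was analysed from the deposited RPKM values of 12652 genes in 36 libraries. Per the labels' protocols, libraries were made with a TruSeq mRNA kit. Per the submitters' processing notes, bcl2fastq 2.17, STAR 2.5.2b and the mm10 build were used, and how the authors scaled the RPKM values is not given in the sources used here. The values of all 12652 genes (100%) came out as whole reads within 0.05 reads, and those reads summed to 19640305 to 30686200 in the 8 libraries compared. The divisor behind the RPKM values followed median-of-ratios size factors (SD 0.661%) more closely than read sums (SD 5.47%).

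Duplicates of a culture and condition were averaged on log2(RPKM + 0.5). The 18 values were fitted with limma 3.58.1 in R 4.3.3, with a mean for each of the 9 conditions, culture as a block and an intensity trend, over 11361 genes with at least 1 RPKM in at least 4 libraries. All 36 libraries entered the fit because each condition has 2 cultures. P-values are two-sided with Benjamini-Hochberg adjustment. With culture as a block, they measure how far differences between conditions varied between the 2 cultures, pooled over the 9 conditions. They rest on 2 cultures and say little about other mice. The pairing comes from the labels, which name the animal: the correlation of culture differences between conditions had a median of 0.441 (0.0372 to 0.662) and was 0.187 between 0 h and the antagonist at 24 h. The fit was also run on simulated data that held no difference between cultures, so that run did not test the culture block.

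The comparison and the 44 gene lists were chosen with earlier results of these data known. Named genes were the 15 largest rises and 15 largest falls, the 8 largest and 8 smallest differences from DMSO, up to 4 members of each list with the smallest p, and a set panel. Ace, Dgat1, Mttp, Krt5, Muc5ac, Trpm5, Pou2f3, Tap1, Tap2 and B2m were added after their values had been seen. Psmb8, Psmb9, Psmb10, H2-Q1, Ghrl, Neurog3, Gip, Nts, Sst, Tac1 and the defensins also lie outside that rule. None of these genes is among the 205 followed under the alternative settings. Counts of list members carry no test and are read against the share of all tested genes. Gene spans were taken from the RefSeq annotation of GRCm38.p6. Alternatives covered scaling, pseudocount, filter, model and left-out libraries. A few genes are not reported here.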

Additional observations from a re-analysis of the deposited data

Results flagged for a closer look

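In 14 of 404 sets of 4 libraries (202 named genes, 0 h and the antagonist at 24 h), 1 library stood apart by more than Dixon's critical value at 95%. For independent values chance gives about 1 in 20 sets. Each set here holds 2 cultures in duplicate, so that rate may not apply. At 0 h, Npy was 0.0586 RPKM in 1 library and 0 in the others. Reg1 was highest in the first duplicate of culture 1 at 6.09 RPKM, where the others lay between 5.76 and 5.81. Apob was lowest in the same library at 32.55 RPKM, below 43.9 to 44.7. Sct was lowest at 2.19 RPKM (others 2.59 to 2.67) and Hk1 at 10.2 RPKM (others 12.2 to 12.6), both in the first duplicate of culture 1. Cldn15 was highest in culture 2 at 32.4 RPKM, above 27.0 to 27.2.

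With the antagonist at 24 h, Gm44805 was lowest in culture 1 at 3.43 RPKM (others 4.31 to 4.46). The first duplicate of culture 2 was lowest for Ascl2 at 1.54 RPKM (others 2.13 to 2.24) and for Gnl3 at 39.05 RPKM (others 42.4 to 42.6), and highest for Sdhd at 197 RPKM (others 186 to 188). Nupr1 was highest at 323 RPKM (others 282 to 285) and Stra6 at 0.382 RPKM (others 0.211 to 0.235), both in culture 1. Slc30a10 was highest in culture 2 at 0.0295 RPKM (others 0.0181 to 0.0198) and Dnajb9 in culture 1 at 10.1 RPKM (others 8.28 to 8.53).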

How the results depend on the processing

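Against 0 h the antagonist gave between 6021 calls (genes with a mean of at least 5 RPKM) and 8620 (no filter), 8122 with limma-voom on the recovered reads and 6940 at an adjusted p below 0.01. Leaving out 1 library gave 7863 to 8041 calls, and leaving out culture 1 or 2 gave 7340 or 7545. With culture and duplicate number as a replicate block over 36 libraries, 8396 genes were called, and 7504 with no replicate block. The same 2 settings gave 7487 and 6377 for antagonist against DMSO and 7310 and 6070 for DMSO against 0 h. Scaling moved the split of calls: 3010 higher and 5114 lower for the antagonist against 0 h under read-sum scaling, 2560 and 4557 for DMSO against 0 h under read-sum scaling and 2681 and 4385 under quantile normalization, and 4248 and 2840 for antagonist against DMSO under quantile normalization. No named gene changed sign past the threshold, and 180 of 205 kept their call under each alternative that gave them a value (all 25 for 166 genes, and all but the filter at 5 RPKM for 39). Dhrs3 was at -0.24 (adjusted p = 0.04) in the main limma fit and at -0.03 without culture 1. Its call was lost with limma-voom, with no replicate block and with only the groups compared. It was also lost without the other duplicate of culture 1 at 0 h (-0.20), of culture 2 at 0 h (-0.17) or of culture 2 with the antagonist (-0.22). Olfm4 gained one without the other duplicate of culture 2 at 0 h (0.71) or the first of culture 1 with the antagonist (0.61). Itgam lost its call without the first duplicate of culture 1 at 0 h (-0.23), and Cd68 without the first antagonist duplicate of culture 1 (-0.24) or culture 2 (-0.26). The cause was not tested. With 2 cultures, all p-values rest on a spread pooled over conditions. Genes near 0 RPKM carry few reads, so their differences depend on the pseudocount.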

Other observations

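Genes of antigen presentation moved both ways. The class I heavy chains H2-K1, H2-D1, H2-Q1 and H2-T23 rose with the antagonist, at 0.86, 1.04, 0.65 and 1.15 on the log2 scale against 0 h, and so did Tapbp, the chaperone that loads them, at 1.00. The immunoproteasome subunits Psmb8, Psmb9 and Psmb10, which cut peptides for them, fell, at -0.47, -0.60 and -0.60, and had risen in DMSO by 0.47, 0.45 and 0.33. Of the peptide transporter subunits, Tap2 rose, at 0.24, and Tap1 fell, at -0.36, while B2m, the light chain, was at -0.15 and not called. Class I genes are near copies of one another, so reads may be shared among them. Of 11 genes of this list, 6 rose and 4 fell, which became 5 and 5 under read-sum scaling. Of 15 interferon-stimulated genes, 7 rose and 2 fell (median 0.17), which became 3 and 2 under read-sum scaling (median 0.09) and 9 and 1 under quantile normalization. Bst2, an antiviral membrane tether, was lowest at -0.88.

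Junction genes showed no common direction, with 5 of 14 higher and 4 lower, a split of 1 and 7 under read-sum scaling. Cldn15, which forms sodium-permeable pores in the small intestine, fell by 2.42 and rose by 2.29 in DMSO. Of 12 genes of the Notch pathway and secretory fate, 4 rose and 2 fell (median -0.06), or 4 and 6 under read-sum scaling. Over all tested genes the shares were 36.1% and 34.7%. The 4 that rose were Neurog3, Spdef, Hes1 and Maml1, by 0.74, 0.91, 0.64 and 0.42, and the Notch ligand gene Dll1 fell by 0.73. Ghrl, the hormone ghrelin, rose by 1.49 with the antagonist and was above DMSO by 1.17, unlike the other hormones tested: Gcg, Cck, Gip, Nts and Sct fell, and Sst and Tac1 were not called.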
